A study of Homo sapiens with 10 samples.

Results

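The genes described are 10 members of the BCL2 family of survival and death genes, BCL2, BCL2L1, MCL1, BCL2A1, BCL2L2, BCL2L11, PMAIP1, BAK1, BID and BMF. They were chosen by name, with earlier results of these data known, and the choice used no measured value. With it, 7 Ensembl transcripts were assigned to 6 of them. The transcripts are 2 of BCL2 and 1 each of BCL2L1, MCL1, BCL2A1, BCL2L11 and PMAIP1, out of 187626 transcripts listed. The tables used here pair no transcript with a gene, so BCL2L2, BAK1, BID and BMF, and the remaining transcripts of the other 6 genes, were not analysed here. Each value below is therefore that of a single main transcript and not of a whole gene. All 7 transcripts passed the filter on low counts.

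The BCL2 family decides whether a cell keeps its mitochondria intact. Its survival proteins, among them BCL2, BCL-xL (gene BCL2L1), MCL1, BFL-1 (BCL2A1) and BCL-w (BCL2L2), hold back the pore-forming effectors such as BAK (BAK1). Death proteins that carry only the BH3 segment, such as BIM (BCL2L11), NOXA (PMAIP1), BMF and BID once it is cleaved, bind and neutralize the survival proteins, and NOXA binds chiefly MCL1 and BFL-1. In pigment cells BCL2 and BCL2A1 are known targets of the lineage factor MITF.

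The cells were 501Mel, an established human melanoma line. Polyadenylated RNA was sequenced after a small interfering RNA against IRF4 (siIRF4, 3 libraries) or a control one (siCTRL, 3 libraries). IRF4, interferon regulatory factor 4, is a DNA-binding factor of lymphoid and pigment cells. The comparison asked which family transcripts differ when IRF4 is targeted. The labels give no dose, duration or separate cultures, so p-values measure the spread between these libraries, which may be technical. IRF4 itself, the lineage markers of the line and the IRF4 binding sites near the family genes were not analysed here, so the knockdown and the cell type were not checked.

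Depth was high, with 129989698 to 203758441 estimated counts in a library. The libraries did not part by label. On the first principal component of all tested transcripts, which carried 33.6% of the variance, siIRF4 replicate 1 (-111) lay with siCTRL replicates 1 and 3 (-128 and -173). On the other side, siCTRL replicate 2 (132) lay with siIRF4 replicates 2 and 3 (199 and 80.8). Libraries of the same replicate number thus lay on the same side for replicates 1 and 2, but not for replicate 3. Whether each library carries its right label was not tested, and every comparison of siIRF4 with siCTRL below rests on the labels. The fold changes from edgeR and the ratios below are therefore given with all 6 libraries and again without siIRF4 replicate 1 and siCTRL replicate 2. The second version sets siIRF4 replicates 2 and 3 against siCTRL replicates 1 and 3. A difference between replicate numbers cannot be fully told apart from one between treatments there. Mean fragment lengths were 271.5 to 297.3 bases in the first 3 of these libraries and 262.7 to 294.5 bases in the other 3.

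No family transcript differed between siIRF4 and siCTRL past the threshold. With edgeR's quasi-likelihood test, 0 of the 7 had an adjusted p under 0.05, beside 0 of 83831 transcripts tested (0%). At an unadjusted p under 0.05 there were also 0 of the 7, beside 2.14% of all transcripts. DESeq2 called 0 of the 7 as well, beside 0.182% of the transcripts it tested. The fitted change was lower in siIRF4 for 5 of the 7 and higher for 2, with a median log2 fold change of -0.04, beside -0.0064 over all transcripts. With siIRF4 replicate 1 and siCTRL replicate 2 left out, 5 were lower and 2 higher, with a median of -0.27, beside -0.0015 over all transcripts. MCL1 and BCL2L11 exchanged direction between the 2 versions. The shorter BCL2 transcript, BCL2A1, BCL2L11, MCL1 and PMAIP1 split the libraries as the first principal component does. Their directions in the second version, and with them its median, were thus set by the choice of libraries. With all 6 libraries, each edgeR adjusted p of the 7 rounded to 1. With the 2 libraries left out, they ran from 0.219 (BCL2A1) to 0.823 (BCL2L1). The 95% intervals below give the differences that these libraries could not tell from 0, so a missed threshold does not show equal levels.

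Levels are given in TPM, a length-scaled unit that sums to 1000000 in a library and allows genes to be set side by side. MCL1 was the most abundant, at 83.9 ± 16.6 TPM (SD, n = 6 libraries), followed by BCL2L1 at 27.6 ± 5.65 TPM and PMAIP1 at 12.2 ± 4.24 TPM. The 2 BCL2 transcripts summed to 7.98 ± 1.89 TPM, BCL2A1 stood at 4.01 ± 1.81 TPM and BCL2L11 at 3.01 ± 0.451 TPM. The lowest library of MCL1 (67.2 TPM) lay above the highest of BCL2L1 (36.7 TPM), whose lowest (21.7 TPM) lay above the highest of PMAIP1 (17.7 TPM). From PMAIP1 downwards, the library ranges of neighbours in this order overlapped.

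**Figure D1:**
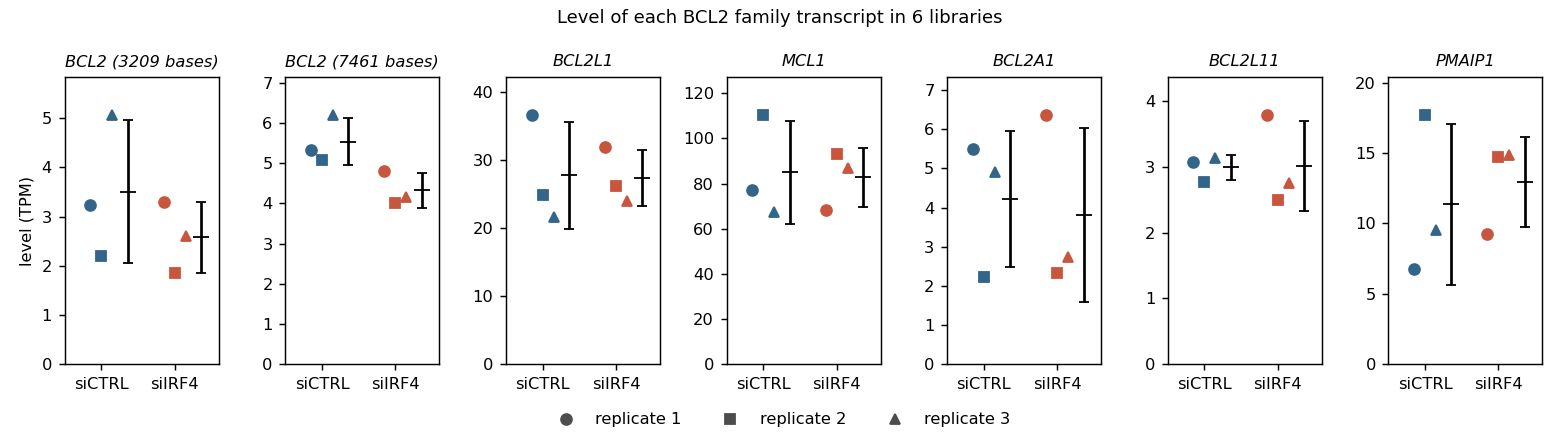
Level in TPM (vertical axes, each from 0) of the 7 transcripts in siCTRL (blue) and siIRF4 (red), one point per library with shape for replicate number, and the group mean with SD in black (n = 3). The groups overlap for 6 of the 7, and the BCL2 transcript of 7461 bases lies between 4.004 and 4.82 TPM in siIRF4 and between 5.10 and 6.22 TPM in siCTRL.

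Among the survival genes, the longer BCL2 transcript was the only one of the 7 transcripts whose groups did not overlap. BCL2, the founding member of the family, lies on chromosome 18 from 63123346 to 63320090 (GRCh38.p14). Its transcript of 7461 bases (ENST00000398117.1) was listed at 4.82, 4.004 and 4.15 TPM in siIRF4 replicates 1, 2 and 3 and at 5.32, 5.10 and 6.22 TPM in siCTRL. All 3 siIRF4 libraries lay below all 3 siCTRL libraries, in TPM and in CPM. Of all transcripts tested, 7.11% had groups that did not overlap, and 3.73% did so with siIRF4 the lower. The log2 fold change was -0.36 (SE 0.160), a fold of 0.779 with a 95% interval of 0.598 to 1.015, and an unadjusted edgeR p of 0.0606. It was -0.53 without siIRF4 replicate 1 and siCTRL replicate 2, with an edgeR adjusted p of 0.276.

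The BCL2 transcript of 3209 bases (ENST00000333681.4) varied more. It was listed at 3.29, 1.84 and 2.60 TPM in siIRF4 and at 3.24, 2.20 and 5.08 TPM in siCTRL. The groups overlapped, and siCTRL replicate 3 was the highest. On the log2 scale the difference was -0.44 (SE 0.367), a fold of 0.735 with an interval of 0.400 to 1.35. Leaving out that library brought it to -0.07. The value without siIRF4 replicate 1 and siCTRL replicate 2 was -0.94, with an edgeR adjusted p of 0.327. The longer form made up 59.4, 68.5 and 61.5% of the summed BCL2 level in siIRF4 and 62.1, 69.8 and 55.1% in siCTRL. Both replicates numbered 2 had the largest share. The summed level of the 2 BCL2 transcripts overlapped between groups, with siIRF4 replicate 1 (8.115 TPM) above siCTRL replicate 2 (7.298 TPM).

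BCL2L1 codes for BCL-xL and its short splice form and lies on chromosome 20 from 31664452 to 31723963. Its transcript ENST00000307677.4 was listed at 32.0, 26.3 and 24.0 TPM in siIRF4 and at 36.7, 24.9 and 21.7 TPM in siCTRL. In both groups replicate 1 was highest and replicate 3 lowest, and the group means (27.4 and 27.8 TPM) lay closer together than the libraries of either group. The fold was 0.992, with an interval of 0.663 to 1.49. The log2 fold change was -0.01 with all 6 libraries and -0.24 without siIRF4 replicate 1 and siCTRL replicate 2 (edgeR adjusted p = 0.823).

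MCL1, a short-lived survival protein, lies on chromosome 1 from 150574558 to 150579610. Its transcript ENST00000369026.2 was listed at 68.2, 93.1 and 87.1 TPM in siIRF4 and at 77.3, 110.6 and 67.2 TPM in siCTRL. The 3 highest libraries were siCTRL replicate 2 and siIRF4 replicates 2 and 3, those on the positive side of the first principal component. The fold was 0.973, with an interval of 0.679 to 1.39. Without siIRF4 replicate 1 and siCTRL replicate 2 the sign turned, to a log2 fold change of 0.30 (edgeR adjusted p = 0.513).

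BCL2A1, whose protein BFL-1 is a survival factor of lymphoid and pigment cells, lies on chromosome 15 from 79960892 to 79971196. Its promoter is shown because, of the 8 family genes with a promoter window in RefSeq's GRCh38.p14 table, it was the only one with the core of the interferon-stimulated response element to which IRF factors bind. Windows ran from 250 bases before to 50 bases after the start site. The core was searched as GAAA, any 2 bases and GAAA, on both strands, and 3.57% of all 35116 windows held it. The sequence CATGTG, an E-box that MITF can bind, was present as well and was held by 11.1% of all windows, among them 1 of BID. The 250 bases before the BCL2A1 start site are chr15:79971197-79971446, minus strand, with the matches in capitals:
BCL2A1: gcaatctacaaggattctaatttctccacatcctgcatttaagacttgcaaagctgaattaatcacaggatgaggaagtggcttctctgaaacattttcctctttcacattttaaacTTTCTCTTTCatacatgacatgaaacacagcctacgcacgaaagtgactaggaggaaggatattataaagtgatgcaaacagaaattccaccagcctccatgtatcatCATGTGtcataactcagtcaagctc
The first match begins 133 bases and the second 25 bases before the start site. These are matches of letters, and binding there was not analysed here.

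The BCL2A1 transcript ENST00000267953.3 (1033 bases) had the widest relative spread of the 7. It was listed at 6.38, 2.32 and 2.72 TPM in siIRF4 and at 5.51, 2.23 and 4.92 TPM in siCTRL, from 172 to 481 estimated counts. The high libraries were siIRF4 replicate 1 and siCTRL replicates 1 and 3, so each group held high and low ones. The highest library was 2.86 times the lowest, where tested transcripts within 0.5 to 2 times its mean level had a median of 1.93, and 78.5% of them had a smaller ratio. The log2 fold change was -0.12 (SE 0.527), with an interval in fold of 0.386 to 2.21, so a difference of 2-fold in either direction lay inside it. With siIRF4 replicate 1 and siCTRL replicate 2 left out it was -1.06 (SE 0.258), a fold of 0.480, with an edgeR adjusted p of 0.219.

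Of the death genes, PMAIP1 codes for NOXA, which is also known as a p53 target, and lies on chromosome 18 from 59899996 to 59904305. Its transcript ENST00000316660.6 was listed at 9.24, 14.7 and 14.9 TPM in siIRF4 and at 6.76, 17.7 and 9.55 TPM in siCTRL. The 3 low libraries were those in which BCL2A1 was high, and the 3 high ones those in which it was low. This is the split of the first principal component of all tested transcripts. The share of all transcripts that split this way was not counted, so the pattern is not shown to be particular to these genes. The highest library of PMAIP1 was 2.63 times the lowest, above the ratio of 86.6% of transcripts of like level. The log2 fold change was 0.19 (SE 0.377), with an interval in fold of 0.611 to 2.13. Leaving out 1 library moved it from -0.077, without siCTRL replicate 1, to 0.66, without siCTRL replicate 2 (edgeR adjusted p = 1 and 0.936). It was 0.84 without siIRF4 replicate 1 and siCTRL replicate 2 (edgeR adjusted p = 0.256).

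**Figure D2:**
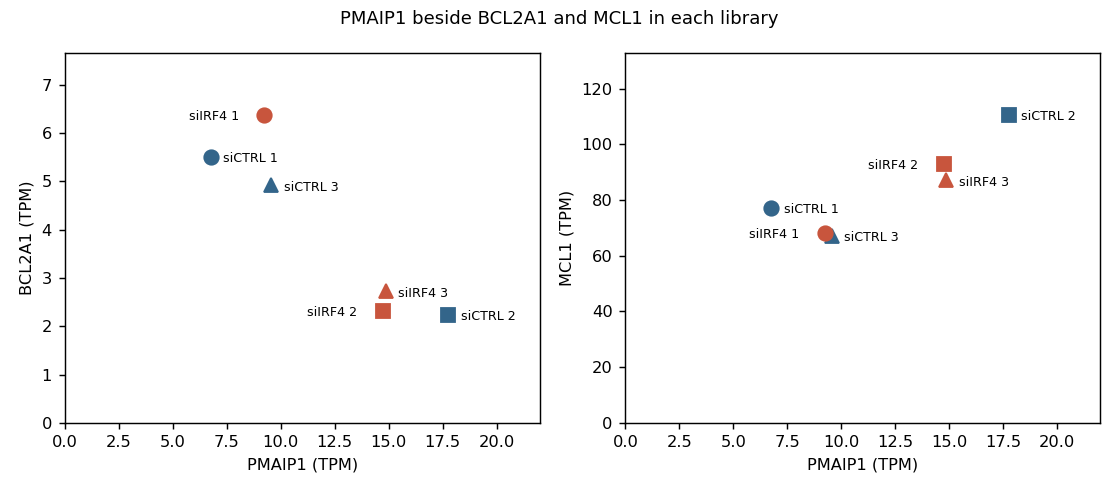
PMAIP1 in TPM (horizontal axes) against BCL2A1 (left) and MCL1 (right) in TPM (vertical axes), one labelled point per library, red for siIRF4 and blue for siCTRL. Libraries siIRF4 1, siCTRL 1 and siCTRL 3 have PMAIP1 at no more than 9.55 TPM with BCL2A1 at 4.92 TPM or more, and the other 3 have PMAIP1 at 14.7 TPM or more with BCL2A1 at no more than 2.72 TPM. The first principal component of all tested transcripts splits the libraries in the same way.

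BCL2L11 codes for BIM, a broad binder of the survival proteins, and lies on chromosome 2 from 111120914 to 111168445. Its transcript ENST00000393256.7 was listed at 3.799, 2.50 and 2.76 TPM in siIRF4 and at 3.08, 2.77 and 3.13 TPM in siCTRL. All siCTRL libraries lay within the range of the siIRF4 libraries, and siIRF4 replicate 1 was the highest. It was the steadiest of the 7, with a highest library 1.52 times the lowest, where transcripts of like level had a median of 2.05. The fold was 1.01, with an interval of 0.707 to 1.44, which leaves out a 2-fold difference in either direction. Without siIRF4 replicate 1 and siCTRL replicate 2 the log2 fold change was -0.27 (edgeR adjusted p = 0.592).

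The balance of death to survival transcripts was read as a ratio of TPM within each library, which does not depend on the scaling between libraries. BCL2L11 to the summed BCL2 level was 0.468, 0.428 and 0.409 in siIRF4 and 0.359, 0.380 and 0.277 in siCTRL, so the groups did not overlap. The exact permutation p (two-sided, on log2 ratios) was 0.1, the smallest that 3 against 3 allows, and 0.4 when adjusted over the 4 ratios computed. BCL2L11 itself had a fold of 1.01 in edgeR, so the difference between the group means of this ratio lay mainly in the BCL2 values. The lack of overlap did not lie in BCL2 alone. The summed BCL2 level by itself overlapped between groups, and siIRF4 replicate 1 had the highest BCL2L11 level (3.799 TPM). The share of other ratios whose groups do not overlap was not computed. PMAIP1 to MCL1, whose proteins bind each other, was 0.136, 0.158 and 0.171 in siIRF4 and 0.0875, 0.161 and 0.142 in siCTRL, with overlapping groups (exact permutation p = 0.5, adjusted p = 1). PMAIP1 to BCL2A1 ran from 1.45 to 6.35 in siIRF4 and from 1.23 to 7.95 in siCTRL, with an exact permutation p of 0.9. BCL2A1 to MCL1 ran from 0.0249 to 0.0936 in siIRF4 and from 0.0202 to 0.0732 in siCTRL, with an exact permutation p of 1. Without siIRF4 replicate 1 and siCTRL replicate 2, the log2 ratio of siIRF4 less that of siCTRL was 0.41 for BCL2L11 to BCL2 (0.37 with all 6). It was 0.56 for PMAIP1 to MCL1 (0.29), 1.93 for PMAIP1 to BCL2A1 (0.47) and -1.37 for BCL2A1 to MCL1 (-0.18). These last 3 ratios split the 6 libraries as the first principal component does. Their direction with the 2 libraries left out was thus set by that choice and is not evidence of a changed balance.

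Without siIRF4 replicate 1 and siCTRL replicate 2, edgeR still called 0 of the 7 transcripts at an adjusted p under 0.05, beside 0 of 85498 (0%). At an unadjusted p under 0.05 were 4 of the 7, both BCL2 transcripts and BCL2A1 as the lower in siIRF4 and PMAIP1 as the higher, beside 12.6% of all transcripts. These 2 libraries were left out because of their place on the first principal component of all transcripts, the family included, so this fit is not independent evidence. The shorter BCL2 transcript, BCL2A1, BCL2L11, MCL1 and PMAIP1 split the 6 libraries as that component does. Their separation and direction in this fit were thus set by the choice of libraries, and the 4 of 7 cannot be read as an excess over 12.6%. The 2 libraries left out held 143091223 and 203758441 estimated counts with mean fragment lengths of 271.5 and 294.5 bases. The part of depth and fragment length in these values was not tested.

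**Figure D3:**
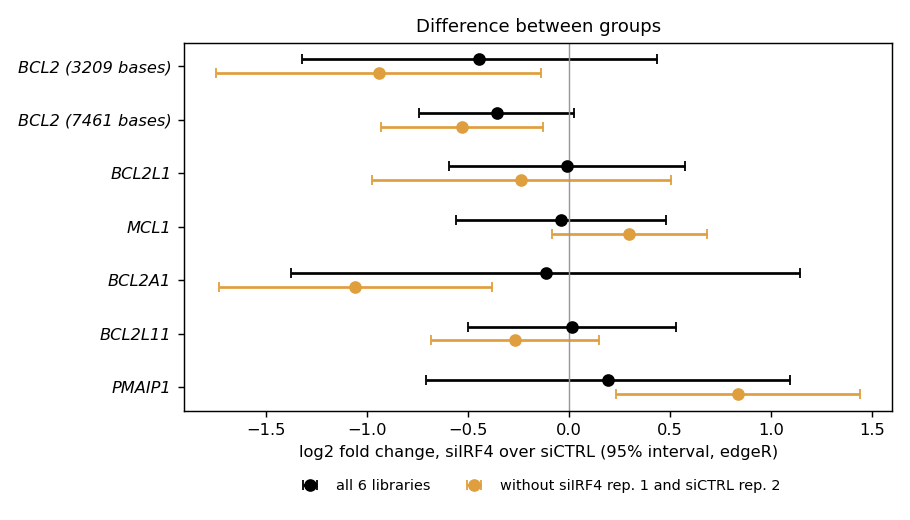
Log2 fold change of siIRF4 over siCTRL (horizontal axis) with 95% intervals from edgeR for each transcript, with all 6 libraries (black) and without siIRF4 replicate 1 and siCTRL replicate 2 (yellow). All 7 black intervals include 0, and the yellow intervals of both BCL2 transcripts, BCL2A1 and PMAIP1 do not, before adjustment for multiple tests.

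A bulk library cannot tell fewer cells with a transcript from less of it in each cell. Expression patterns over the 6 libraries were also compared across 18059 transcripts of at least 5 TPM. For BCL2A1 the 3 most alike had a Pearson's r of 0.9976 to 0.9984 on log2(TPM + 1), for MCL1 0.9947 to 0.9975 and for the longer BCL2 transcript 0.9825 to 0.9874. These are the highest of all r values computed, each over only 6 libraries, so values near 1 can come from that selection alone. The points also share library and depth, and the files do not pair the transcripts with genes.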

How the data were processed

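The authors deposited 1 table per RNA-seq library with estimated counts and TPM for each Ensembl transcript. The submitters' processing notes name kallisto, sleuth and the builds GRCh38 and hg19, with no role; versions and annotation are not given in the sources used here. The 2 ChIP peak lists were not used.

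The genes, transcripts and lists were chosen with earlier results of these data known. All 7 transcripts were named, whatever their test. Tests per gene, the IRF4 level and the planned lists of apoptosis genes and cell markers were not run, because transcripts could not be paired with genes.

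Estimated counts were rounded. Groups were compared by the two-sided quasi-likelihood test of edgeR 4.0.16 in R 4.3.3, after filterByExpr and TMM scaling. P-values were Benjamini-Hochberg adjusted over 83831 transcripts, with a threshold of 0.05. Standard errors were the absolute log2 fold change over the square root of F. Alternatives used DESeq2 1.42.0 and limma 3.58.1 (on log2 TPM and voom). Replicate numbers were not taken as pairs in the main fit. Deviations from the group mean correlated at 0.196, 0.238 and 0.0381 between libraries of equal replicate number. Between unequal numbers they correlated at -0.266 to 0.106. A pairing is therefore not excluded, and a fit with replicate number as a block was run as an alternative. The intervals given for each gene in the Results come from fits without the block.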

Additional observations from a re-analysis of the deposited data

How the results depend on the processing

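The count of family members called was 0 in every alternative run. The count over all transcripts stayed at 0 apart from DESeq2 (190) and limma on log2(TPM + 0.1), which gave 8, and the cause was not tested. The replicate block also gave 0 calls, with BCL2L1 at 0.0071 and BCL2L11 at -0.0119 on the log2 scale, both turned in sign. Its SEs were smaller for BCL2L1 (0.117 against 0.243), MCL1 (0.133 against 0.217), PMAIP1 (0.204 against 0.377) and BCL2A1 (0.335 against 0.527). With the block, the interval of BCL2A1 in fold was 0.481 to 1.64, which held a 2-fold fall but not a 2-fold rise. For the longer BCL2 transcript the SE hardly moved (0.159 against 0.160). Both BCL2 transcripts kept their direction in all 17 alternatives, which reuse the same libraries and so are not independent of each other. Leaving out each library in turn gave log2 fold changes of -0.47 to -0.26 for the longer and -0.70 to -0.07 for the shorter. Values near 0 turned sign: BCL2L1 was 0.0018 with limma-voom, 0.0053 and 0.0062 with limma on log2(TPM + 1) and log2(TPM + 0.1), and 0.0029 with length-scaled counts, and BCL2L11 was -0.0108, -0.0019 and -0.0068 in the first 3. Without siIRF4 replicate 1 and siCTRL replicate 2, MCL1 turned to 0.30 and BCL2L11 to -0.27. Leaving out each library in turn gave log2 fold changes of -0.16 to 0.24 for BCL2L1, -0.18 to 0.19 for MCL1, -0.75 to 0.14 for BCL2A1, -0.22 to 0.12 for BCL2L11 and -0.077 to 0.66 for PMAIP1. The log2 ratio of PMAIP1 to BCL2A1 then ran from -0.090 to 1.26 and that of BCL2A1 to MCL1 from -0.79 to 0.20, that of PMAIP1 to MCL1 from 0.029 (without siCTRL replicate 1) to 0.47, against 0.29 with all 6 libraries, while that of BCL2L11 to BCL2 stayed between 0.23 and 0.46. Leaving libraries out of the ratios was chosen after seeing the data. The pair siIRF4 replicate 1 and siCTRL replicate 2 was picked from the first principal component of these data. Its removal from the fits was thus also chosen after seeing them. Not run were counts per gene, the IRF4 level and ChIP peaks at these genes. BCL2A1 had the fewest estimated counts, 172 in its lowest library, and the part of depth in its spread was not tested.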

Other observations

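Of the family genes without a paired transcript, BMF and BID also held searched letters in a promoter window. One of the 2 windows of BMF, a death gene linked to the cytoskeleton, held the ETS-IRF composite element (GGAA, any 2 bases and GAAA), 22 bases before the start site on the other strand, as did 2.82% of all windows. BID, whose protein links death receptors to mitochondria, held CACGTG in 2 overlapping windows of its 5, and 7.26% of all windows held it.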
